A study of Arabidopsis thaliana with 9 samples.

Results

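LHCB1 and LHCB2 encode the main proteins of light-harvesting complex II, the trimeric antenna that gathers light for photosystem II. In Arabidopsis thaliana LHCB1 is encoded by 5 genes and LHCB2 by 3, and all 8 were taken by their locus identifiers from the 26984 named genes of the deposited tables. Transcripts had been measured by RNA sequencing of total RNA from whole seedlings aged 7 days, raised under short days and collected at ZT20, which is 20 hours after lights-on and thus at night. There were 3 libraries of wild type (Col-0, the usual laboratory strain), 3 of the cop1-6 mutant and 3 of the cor27cor28 double mutant. The labels name no transgene and do not say whether the 3 libraries of a genotype came from separate batches of plants, so p-values speak of the spread among these libraries alone. The libraries come from whole seedlings, in which fewer cells of a type and less RNA per cell cannot be told apart.

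LHCB1 and LHCB2 bind chlorophyll a and b, sit in the thylakoid membrane of the chloroplast and are made from nuclear genes, so that the proteins are imported after synthesis in the cytosol. The kinase STN7 phosphorylates both, and phosphorylated antenna can move from photosystem II towards photosystem I. These genes are textbook targets of light and of the circadian clock: phytochrome signalling raises their transcripts, and the promoter of LHCB1.1, under its older name CAB2, drives a widely used luciferase reporter of clock time. COP1 is a ubiquitin ligase that holds back light responses in darkness by marking transcription factors for degradation, and cop1-6 is a viable mutant allele of it. COR27 and COR28 are small proteins regulated by cold and by the clock.

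The copies lie in tandem or divergent groups on the TAIR10.1 assembly. On chromosome 1, LHCB1.2 (AT1G29910, chr1:10472280-10473502, minus strand), LHCB1.1 (AT1G29920, chr1:10474656-10475969, minus strand) and LHCB1.3 (AT1G29930, chr1:10477885-10479114, plus strand) follow each other with gaps of 1153 and 1915 bases and no gene between them. On chromosome 2, LHCB1.5 (AT2G34420, chr2:14522524-14523568, minus strand) and LHCB1.4 (AT2G34430, chr2:14524607-14525918, plus strand) point away from each other across 1038 bases. LHCB2.2 (AT2G05070, chr2:1799234-1800472, minus strand) and LHCB2.1 (AT2G05100, chr2:1822990-1824480, minus strand) are 22517 bases apart, and LHCB2.3 (AT3G27690, chr3:10255906-10257489, plus strand) stands alone on chromosome 3. The 5 LHCB1 genes have no intron and each LHCB2 gene has 1. LHCB1.3 overlaps the opposite-strand gene NRPA2 by 108 bases, LHCB1.5 overlaps RWA3 by 99 bases as well as the non-coding AT2G08665, and LHCB2.3 overlaps AT3G27700 by 595 bases. These 3 protein-coding neighbours had group means of 6.56 to 14.5 FPKM, and the sources used here do not say whether reads were counted by strand.

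The coding sequences of copies are close, which bears on how well reads can be assigned. LHCB1.1, LHCB1.2 and LHCB1.3 were 95.6% to 96.4% identical in coding sequence and LHCB2.1 and LHCB2.2 were 96.6% identical, while LHCB2.3 shared 84.4% with LHCB2.2 and 85.5% with LHCB2.1. Any LHCB1 gene and any LHCB2 gene shared 69.2% to 73.2%. The first 90 coding bases, read from the RefSeq TAIR10.1 genome, show the pattern for the 3 near-identical LHCB1 copies and for the 3 LHCB2 copies. Capitals mark bases that differ from LHCB1.3 in the first 3 lines and from LHCB2.1 in the last 3.
LHCB1.3: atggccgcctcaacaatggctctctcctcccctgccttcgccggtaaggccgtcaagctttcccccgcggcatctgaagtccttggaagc
LHCB1.1: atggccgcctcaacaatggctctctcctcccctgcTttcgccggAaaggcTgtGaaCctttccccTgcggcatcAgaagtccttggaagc
LHCB1.2: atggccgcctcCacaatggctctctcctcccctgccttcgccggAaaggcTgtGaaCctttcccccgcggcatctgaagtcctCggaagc
LHCB2.1: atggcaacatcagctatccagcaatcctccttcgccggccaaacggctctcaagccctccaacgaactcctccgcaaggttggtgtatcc
LHCB2.2: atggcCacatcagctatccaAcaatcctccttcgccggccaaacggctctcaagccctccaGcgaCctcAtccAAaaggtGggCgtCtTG
LHCB2.3: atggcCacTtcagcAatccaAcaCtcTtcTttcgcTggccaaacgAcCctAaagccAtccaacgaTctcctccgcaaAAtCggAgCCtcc
In this stretch LHCB1.1 and LHCB1.2 differ from LHCB1.3 at 7 and 6 bases, and LHCB2.2 and LHCB2.3 differ from LHCB2.1 at 12 and 19. Over whole transcripts, exact stretches of 50 bases shared with another member made up 10.6% to 28.2% of the stretches of 7 genes and 0% of those of LHCB2.3. At 100 bases these shares were 1.5% to 12.4%, again with 0% in LHCB2.3. At 150 bases only LHCB2.1 and LHCB2.2 had any, 3 stretches each. The sources used here give neither the read length nor the treatment of reads that map to several copies, so values of single copies other than LHCB2.3 are uncertain to that extent, and the sums over each family are given beside them.

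The values are FPKM, which correct the sequenced fragments for transcript length and library size, so levels of different genes can be set side by side per length. FPKM sums of the libraries ranged from 515929.5 to 612462.2, and the number of reads behind them is not given. Over all tested genes the median log2 fold change against wild type was −0.211 for cop1-6 and 0.103 for the libraries labelled cor27cor28, and it was −0.365 for cop1-6 against the latter. Changes below are to be read against these shifts. Of the genes called in these comparisons 77.9%, 33.3% and 86.0% were lower. Under median-of-ratios scaling these shares became 47.7%, 62.8% and 42.1%, and with library totals made equal 57.4%, 16.3% and 80.5%. COP1 was not analysed here. In the libraries labelled cor27cor28, COR27 had 48.0, 50.1 and 47.9 FPKM against 12.5, 17.4 and 16.2 in wild type (limma log2 fold change 1.62 ± 0.26 SE, adjusted p = 0.00165), and COR28 had 2.49, 1.48 and 2.71 FPKM against 2.73, 1.92 and 3.08 and was not called (adjusted p = 0.573). Neither targeted transcript was called lower there and the sources used here do not describe the lesions, so directions rest on the labels.

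LHCB1.3 dominated the family in all 9 libraries. It was the most abundant or second most abundant of all genes in each library and made up 79.4% ± 0.453 of the LHCB1 sum in wild type, 67.5% ± 1.28 in cop1-6 and 80.8% ± 0.634 in the libraries labelled cor27cor28 (SD, n = 3). In wild type LHCB1.3 had 15106, 18027 and 13940.1 FPKM. LHCB1.2, LHCB1.1 and LHCB1.5 followed at means of 1229, 1208 and 1133 FPKM, and their libraries overlapped each other. LHCB2.1 at 539.8 ± 54.0 and LHCB1.4 at 507 ± 63.8 FPKM overlapped too, LHCB2.2 lay below them at 391 ± 23.6 and LHCB2.3 was lowest at 106 ± 14.7 FPKM.

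The order differed in the mutants. In cop1-6 LHCB1.1 and LHCB2.1 came next at 1565 ± 90.8 and 1176 ± 85.7 FPKM, each clear of its neighbours in the order. LHCB1.5 and LHCB2.2 overlapped (879 ± 72.2 and 778 ± 37.9 FPKM), as did LHCB2.2 and LHCB1.2 (701 ± 96.2 FPKM), and LHCB1.4 came last at 78.6 ± 3.55 FPKM, below LHCB2.3. In the libraries labelled cor27cor28 the order was LHCB1.3, LHCB1.1, LHCB1.2, LHCB1.5, LHCB2.1, LHCB2.2, LHCB1.4 and LHCB2.3, and only LHCB1.2 and LHCB1.5 overlapped among neighbours. LHCB2.3 there had 21.5 ± 1.62 FPKM and ranked between 4525 and 5337 by level, against 819 to 1090 in wild type and 279 to 448 in cop1-6.

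**Figure D1:**
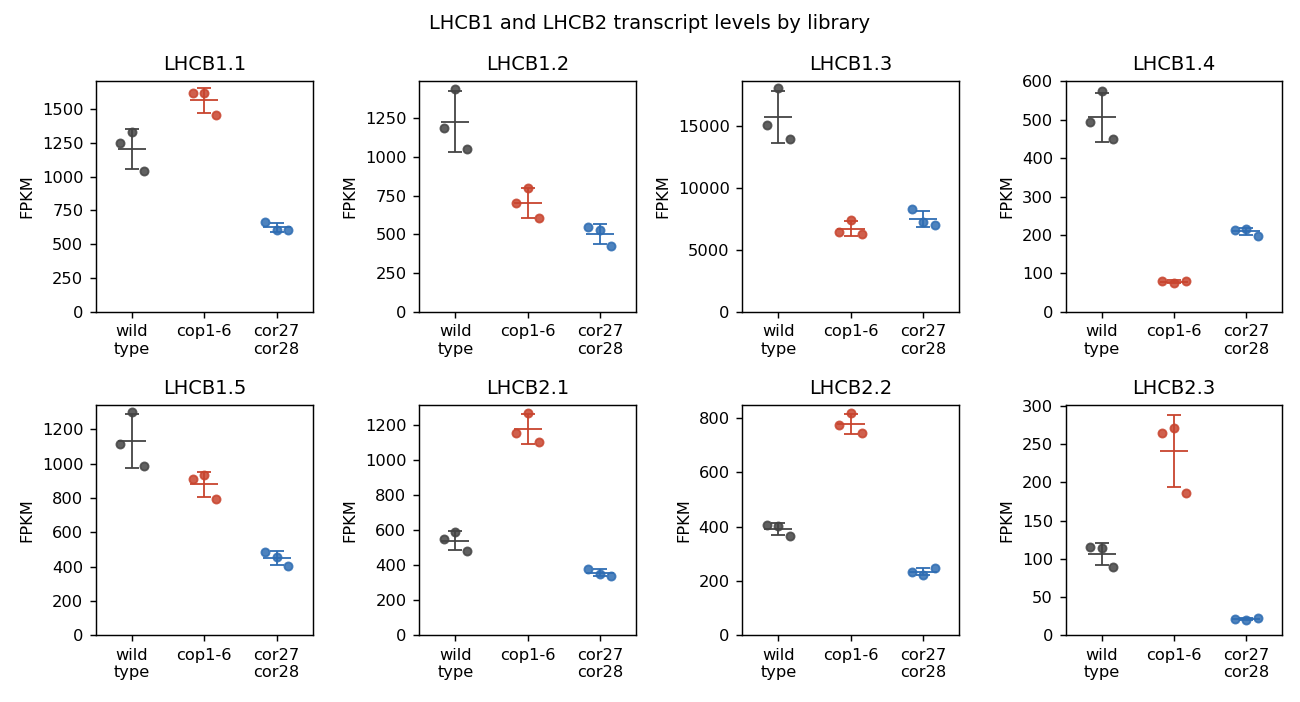
FPKM of the 8 genes (vertical axes, each from 0) in the 3 libraries of each genotype (points), with the mean (long dash) and SD (bars). The 3 LHCB2 genes and LHCB1.1 are highest in cop1-6, the other LHCB1 genes are highest in wild type, and LHCB1.4 falls to 74.5 to 80.9 FPKM in cop1-6.

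Setting cop1-6 beside wild type compares the antenna transcripts of these genotypes in whole seedlings at ZT20. The LHCB2 genes and the LHCB1 genes parted: all 3 LHCB2 genes and LHCB1.1 were higher in cop1-6, and the other 4 LHCB1 genes were lower. Of all 17075 tested genes 10.9% were called higher and 38.6% lower at a limma adjusted p under 0.05, and 4 of the 8 members were called in each direction. The median log2 fold change of the 8 genes was 0.01. Libraries of both genotypes overlapped for none of the 8 genes. The share of all tested genes without such overlap was not computed.

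LHCB1.4 had the largest change of the 8. Its wild-type libraries stood at 494, 576 and 450.4 FPKM, the cop1-6 libraries at 80.9, 74.5 and 80.3 FPKM. The lowest wild-type library was thus far above the highest cop1-6 library, and the mean was 6.45-fold lower (log2 fold change −2.67 ± 0.09 SE, limma adjusted p = 1.14e-09). LHCB1.3 fell from 15106, 18027 and 13940.1 FPKM to 6444, 7419.5 and 6283 FPKM. All 3 cop1-6 libraries were below every wild-type library, a 2.34-fold decrease of the mean (log2 fold change −1.22 ± 0.13 SE, adjusted p = 8.44e-06). LHCB1.2 went from 1191, 1441 and 1055 FPKM to 701, 798 and 605 FPKM. It fell by 0.81 ± 0.13 SE on the log2 scale (adjusted p = 0.000363).

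LHCB1.1 moved the other way from its tandem neighbour LHCB1.2, to which its coding sequence is 95.6% identical. Wild-type levels of 1247, 1332 and 1044 FPKM stood against 1617, 1617 and 1459.8 FPKM in cop1-6. The groups did not overlap, and the rise was the smallest of the 4 (log2 fold change 0.38 ± 0.10 SE, adjusted p = 0.00639). For LHCB1.5 the wild-type libraries gave 1112, 1299 and 987 FPKM, those of cop1-6 909, 932 and 797 FPKM. It was called lower with the deposited values (log2 fold change −0.36 ± 0.11 SE, adjusted p = 0.016), but not with median-of-ratios scaling (−0.10, adjusted p = 0.594), not with equal totals (−0.16, adjusted p = 0.192), not without wild-type replicate 2 (−0.26, adjusted p = 0.0632) and not without cop1-6 replicate 3 (−0.29, adjusted p = 0.0576).

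The 3 LHCB2 genes rose by 1.99-fold to 2.27-fold. LHCB2.1 went from 549.9, 588 and 481 FPKM to 1158, 1270.0 and 1102 FPKM (2.18-fold, log2 fold change 1.125 ± 0.091 SE, adjusted p = 1.13e-06). LHCB2.2 went from 407, 402 and 364 FPKM to 772, 818 and 743 FPKM (0.99 ± 0.08 SE on the log2 scale, limma adjusted p = 7.51e-07). The lowest cop1-6 library was well above the highest wild-type library for both. LHCB2.3 went from 116, 114 and 89.4 FPKM to 265, 271 and 187 FPKM, with replicate 3 lowest in both groups (log2 fold change 1.16 ± 0.14 SE, adjusted p = 2.82e-05). Replicate 3 was the lowest wild-type library for all 8 genes and the lowest cop1-6 library for 7 of them.

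Markers of other tissues moved between these groups too. Of 8 tested root markers (11 listed) 6 were called lower and 0 higher in cop1-6, against 38.6% and 10.9% of all tested genes. These 6 are endodermal genes. MYB36, one of them, passed the minimum for testing through the wild-type libraries alone (1.34 to 1.92 FPKM), so its calls support nothing by themselves. The other 2 were not called: PRX57 at 11.2 ± 5.52 and 9.73 ± 1.7 FPKM (limma adjusted p = 0.789) and PHT1;1, a phosphate transporter gene, at 5.84 ± 1.31 and 6.41 ± 1.8 FPKM (adjusted p = 0.643). The summed level of the 11 was 43.9 to 56.3 FPKM in wild type and 14.4 to 19.2 FPKM in cop1-6, with CASP1, a Casparian strip gene of the root endodermis, at 12.7 ± 2.28 and 0.444 ± 0.411 FPKM and CASP5 and EXPA7 listed at 0 in all 3 cop1-6 libraries. All 3 tested seed markers (6 listed) were called higher, and the summed level of the 6 was 0.307 to 5.15 FPKM in wild type, where CRU3, SESA1 and SESA4 were listed at 0, and 13.9 to 33.8 FPKM in cop1-6. OLEO1 passed the minimum for testing through the cop1-6 libraries alone and CRU1 mainly through them, so this count supports nothing by itself. Of 6 green tissue markers, genes of Rubisco, its activase and carbonic anhydrase, 3 were called higher and 0 lower (5 and 0 under each of the other scalings), at sums of 21479 to 23217 FPKM in wild type and 22708 to 25578 FPKM in cop1-6. The part of tissue makeup in the LHCB1 and LHCB2 values was not tested.

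**Figure D2:**
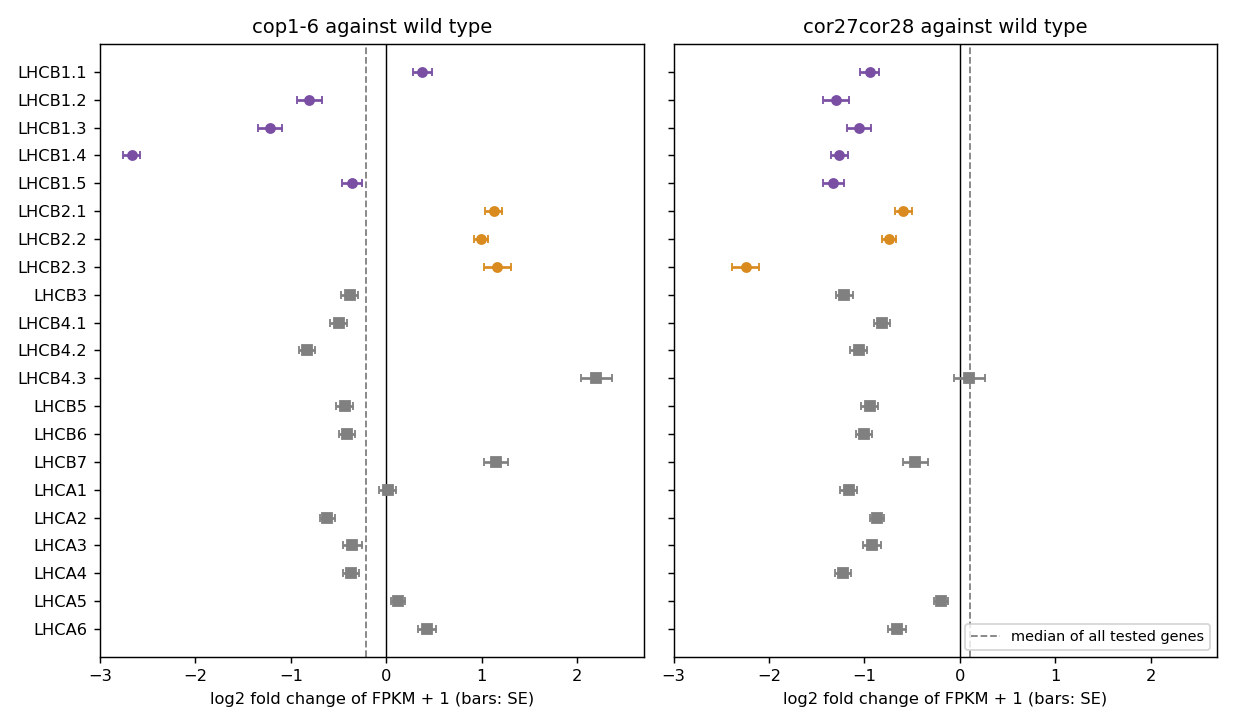
Log2 fold changes (horizontal axis, bars are SE) of the LHCB1 genes (purple), the LHCB2 genes (orange) and the other antenna genes (gray squares) in cop1-6 and in cor27cor28, each against the same wild-type libraries, with the median of all tested genes dashed. In cop1-6 the members spread from −2.67 to 1.16, and in the libraries labelled cor27cor28 all 8 are below 0.

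In the libraries labelled cor27cor28, all 8 genes were lower than in wild type. The background was 7.29% of all tested genes called lower and 14.6% called higher, and the median log2 fold change of the 8 genes was −1.16 against 0.103 for all tested genes. No library of one group reached into the range of the other for any member. For all tested genes the share without overlap was not computed here either. The count of 8 members lower and 0 higher held with both other scalings. LHCB2.3 changed most, and LHCB2.1 and LHCB2.2 least.

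LHCB2.3 had 22.1, 19.7 and 22.8 FPKM in these libraries against 116, 114 and 89.4 FPKM in wild type. The mean was 4.93-fold lower (log2 fold change −2.24 ± 0.14 SE, limma adjusted p = 5.89e-06). Its close relatives LHCB2.1 and LHCB2.2 had 379.8, 353 and 339 FPKM and 233, 221 and 246 FPKM. They fell by 0.59 ± 0.09 and 0.74 ± 0.08 SE on the log2 scale (adjusted p = 0.00131 and 0.000152).

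The 5 LHCB1 genes fell by 0.94 to 1.33 on the log2 scale. LHCB1.5 had 486, 455 and 407 FPKM (−1.33 ± 0.11 SE, limma adjusted p = 5.49e-05), and LHCB1.2 had 546, 527 and 426 FPKM (−1.29 ± 0.13 SE, adjusted p = 0.000156). LHCB1.4 had 214, 216 and 198 FPKM (−1.27 ± 0.09 SE, adjusted p = 1.75e-05). LHCB1.3, the main copy, had 8259.7, 7233 and 7003 FPKM (−1.06 ± 0.13 SE, adjusted p = 0.000355). LHCB1.1 had 663, 604 and 607 FPKM (−0.94 ± 0.10 SE, adjusted p = 0.000152). LHCB1.1 and LHCB1.3 stood at 0.517 and 0.478 of their wild-type means here, and in cop1-6 at 1.295 and 0.428. Green tissue markers moved the same way as the members: 5 of 6 were called lower and 0 higher, against 7.29% and 14.6% of all tested genes. Their sum was 14407 to 16168 FPKM against 21479 to 23217 FPKM in wild type. Root markers summed to 29.6 to 38.0 FPKM with 4 of 8 called lower (MYB36 among them), and seed markers to 0.390 to 2.90 FPKM with 0 of 3 called by limma (CRU1 adjusted p = 0.965, OLEO1 adjusted p = 0.598 and OLEO2 adjusted p = 0.533). Their part in the result was not tested.

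Set directly against each other, cop1-6 had more of 6 members and less of 1 than the libraries labelled cor27cor28. In this comparison 9.19% of all tested genes were called higher in cop1-6 and 56.6% lower, and the median log2 fold change was 1.15 over the 8 genes and −0.365 over all tested genes. LHCB2.3 differed most, 11.2-fold (log2 fold change 3.41 ± 0.14 SE, limma adjusted p = 4.88e-09). LHCB2.1 and LHCB2.2 were 3.29-fold and 3.33-fold higher in cop1-6. LHCB1.1, LHCB1.5 and LHCB1.2 were higher too, with log2 fold changes of 1.32 ± 0.10, 0.97 ± 0.11 and 0.49 ± 0.13 SE. LHCB1.4 alone was lower in cop1-6, at 80.9, 74.5 and 80.3 FPKM against 214, 216 and 198 FPKM (limma adjusted p = 1.9e-07, log2 fold change −1.40 ± 0.09 SE). The most abundant copy, LHCB1.3, was not called, and its libraries overlapped (log2 fold change −0.16 ± 0.13 SE, adjusted p = 0.274). Its sign turned with median-of-ratios scaling, where it was also not called (0.24, adjusted p = 0.359).

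Summed over copies, LHCB1 and LHCB2 went in opposite directions in cop1-6 and in the same direction in the libraries labelled cor27cor28. The LHCB1 sum was 19150, 22675 and 17477 FPKM in wild type, 9752, 10841 and 9225 FPKM in cop1-6 and 10168, 9035 and 8641 FPKM in the libraries labelled cor27cor28. The means of both mutants, 0.503 and 0.469 of that of wild type, came from libraries that overlapped each other but not wild type. The LHCB2 sum was 1073, 1104 and 935 FPKM in wild type, 2195, 2359.6 and 2031 FPKM in cop1-6 and 635, 594 and 608 FPKM in the libraries labelled cor27cor28. The 3 ranges of the LHCB2 sum were apart, with cop1-6 highest. The log2 fold changes of the LHCB1 sum were −0.99 ± 0.13 SE in cop1-6 and −1.09 ± 0.13 SE in the libraries labelled cor27cor28, and those of the LHCB2 sum 1.08 ± 0.09 and −0.76 ± 0.09 SE. These sums over chosen genes are given as values, with no test.

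LHCB1.3 outweighs the others, so the sum of the other 4 LHCB1 genes is given as well. It was 4076 ± 556 FPKM in wild type, 3224 ± 250.4 in cop1-6 and 1783 ± 137 in the libraries labelled cor27cor28 (SD, n = 3). With the deposited values the wild-type libraries at 3536 to 4648 FPKM stood above the cop1-6 libraries at 2942 to 3422 FPKM. Taken as parts of the library FPKM sum these ranges overlapped, and this sum was not fitted under the other scalings. The LHCB1 sum was 19.0 ± 1.37 times the LHCB2 sum in wild type, 15.1 ± 0.902 times in the libraries labelled cor27cor28 and 4.53 ± 0.0768 times in cop1-6. That ratio is taken within a library, so no scaling of libraries alters it. All 8 genes together held 3.47% ± 0.374 of a library's FPKM sum in wild type, 2.32% ± 0.205 in cop1-6 and 1.77% ± 0.127 in the libraries labelled cor27cor28.

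**Figure D3:**
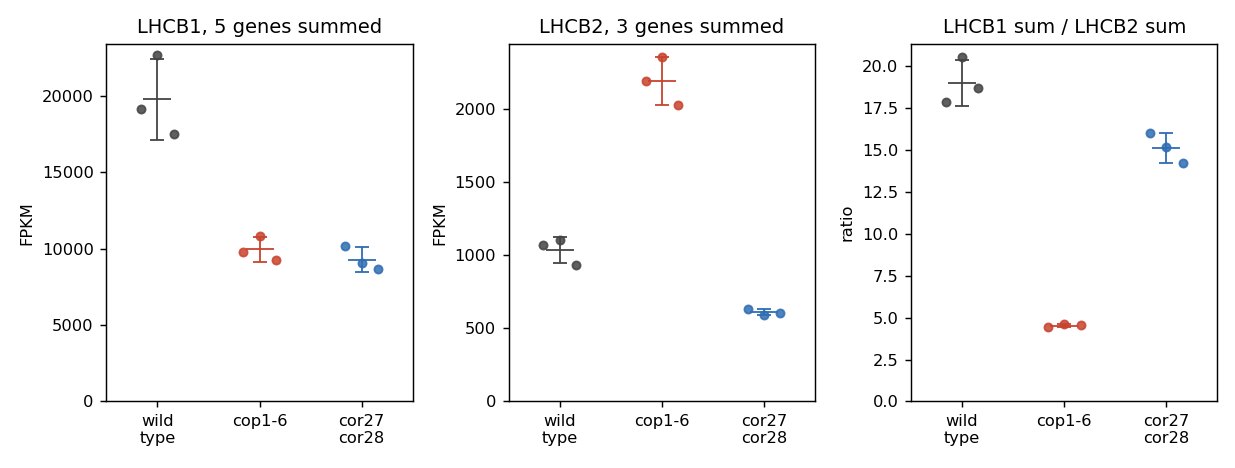
Summed FPKM of the 5 LHCB1 genes and of the 3 LHCB2 genes, and the ratio of both sums (vertical axes from 0), per library (points) with mean (long dash) and SD (bars). The LHCB1 sum is lower in both mutants, the LHCB2 sum is highest in cop1-6, and the ratio is 4.53 in cop1-6 against 19.0 in wild type.

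Ratios between copies of one family are also free of library scaling. A pair that does not pass the test below is not thereby shown to move together. For 13 pairs of copies, an exact permutation test over the 1680 assignments of the 9 libraries to 3 genotypes asked whether the ratio differed among genotypes. Of these, 12 passed after Benjamini-Hochberg adjustment over the 13 pairs, with adjusted p from 0.00774 to 0.0348. The smallest exact p this design allows is 0.00357. Pairs share copies, so their tests are not independent, and the share of other gene pairs that would pass was not computed. The exception was LHCB2.1 over LHCB2.2, at 1.38 ± 0.0729 in wild type, 1.51 ± 0.0362 in cop1-6 and 1.53 ± 0.136 in the libraries labelled cor27cor28 (n = 3, exact permutation p = 0.154, adjusted p = 0.154). Without replicate 3 of the libraries labelled cor27cor28 that pair passed as well (adjusted p = 0.0169, exact permutation test). When genotypes were exchanged only among same-numbered libraries, none of the 12 other pairs passed (exact permutation, adjusted p from 0.0516 to 0.0903). The smallest exact p is then 0.0278.

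The values show where the genotypes parted. LHCB1.1 over LHCB1.2 was 0.925 to 1.05 in wild type, 2.03 to 2.41 in cop1-6 and 1.15 to 1.43 in the libraries labelled cor27cor28, 3 ranges that do not overlap. LHCB1.4 over LHCB1.5, the divergent pair on chromosome 2, was 0.448 ± 0.00725 in wild type, 0.0899 ± 0.0104 in cop1-6 and 0.467 ± 0.0247 in the libraries labelled cor27cor28. The cop1-6 range of that ratio was apart from the other ranges, which overlapped. In LHCB2 the libraries labelled cor27cor28 were apart instead: LHCB2.2 over LHCB2.3 was 3.71 ± 0.316 in wild type, 3.3 ± 0.591 in cop1-6 and 10.9 ± 0.332 in the libraries labelled cor27cor28.

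**Figure D4:**
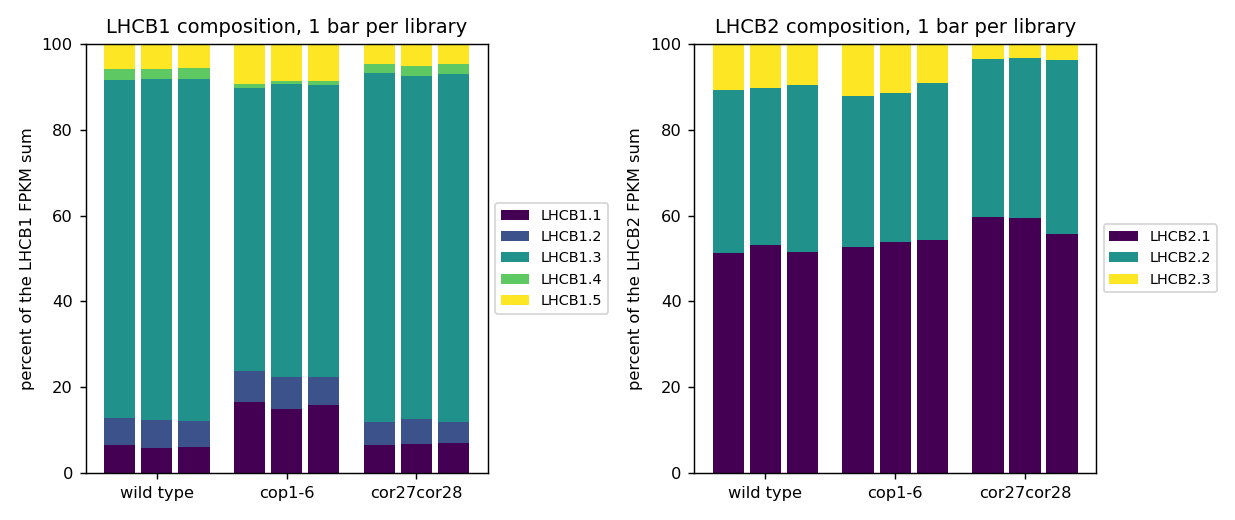
Share of each copy in the FPKM sum of its family (percent, vertical axis), 1 stacked bar per library, for LHCB1 and LHCB2. In cop1-6 LHCB1.1 takes 14.9% to 16.6% of the LHCB1 sum against 5.88% to 6.51% in wild type, and in the libraries labelled cor27cor28 LHCB2.3 takes 3.32% to 3.75% of the LHCB2 sum against 9.56% to 10.8%.

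As shares of the family sum, LHCB1.1 went from 6.12% ± 0.342 in wild type to 15.8% ± 0.83 in cop1-6, and LHCB1.5 from 5.73% ± 0.0798 to 8.85% ± 0.406 (SD, n = 3). LHCB1.4 went from 2.57% ± 0.0216 to 0.796% ± 0.0963. In the libraries labelled cor27cor28 the range of every LHCB1 share was apart from that of wild type. LHCB1.1 at 6.74% ± 0.256 and LHCB1.3 at 80.8% ± 0.634 lay above wild type. LHCB1.4 at 2.26% ± 0.147, LHCB1.5 at 4.84% ± 0.176 and LHCB1.2 at 5.37% ± 0.453 (6.20% ± 0.161 in wild type) lay below it. The LHCB2.3 share was 10.2% ± 0.621 in wild type, 10.9% ± 1.53 in cop1-6 and 3.52% ± 0.217 in the libraries labelled cor27cor28.

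The remaining antenna genes encode LHCB3, another subunit of the trimers, the minor antennae LHCB4 to LHCB6, LHCB7 and the photosystem I antennae LHCA1 to LHCA6. Of these 13 genes, 3 were called higher and 8 lower in cop1-6 with the deposited values, against 10.9% and 38.6% of all tested genes. Under median-of-ratios scaling 5 were higher and 2 lower, and under equal totals 4 were higher and 5 lower. LHCB4.3, a variant of the minor antenna CP29, went from 4.51, 6.92 and 5.12 FPKM to 36.3, 23.1 and 27.8 FPKM (log2 fold change 2.2 ± 0.17 SE, limma adjusted p = 6.08e-07). LHCB7 rose from 8.35 ± 0.795 to 19.8 ± 2.67 FPKM and LHCA6 from 71.0 ± 1.17 to 96.6 ± 13.5 FPKM (adjusted p = 1.57e-05 and 0.00233). LHCB4.2 and LHCA2, both abundant, fell by 0.83 ± 0.09 and 0.62 ± 0.08 SE on the log2 scale (adjusted p = 9.83e-06 and 4.15e-05). LHCB3, whose protein joins LHCB1 and LHCB2 in trimers, had a log2 fold change of −0.39 ± 0.09 SE and was called lower with the deposited values (adjusted p = 0.00337), but not with median-of-ratios scaling (adjusted p = 0.382) or equal totals (adjusted p = 0.0638). The median of the 13 genes was −0.371 against −0.211 for all tested genes.

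In the libraries labelled cor27cor28, 11 of the 13 genes were lower and 0 higher, against 7.29% and 14.6% of all tested genes. Their median log2 fold change was −0.921 against 0.103 for all tested genes. LHCA4, LHCB3, LHCA1 and LHCB4.2 had the lowest adjusted p, with log2 fold changes of −1.23, −1.21, −1.16 and −1.06. LHCB4.3 (0.10 ± 0.17 SE, limma adjusted p = 0.694) and LHCA5 (−0.20 ± 0.07 SE, adjusted p = 0.0739) were not called. All 13 were called higher in cop1-6 than in these libraries, against 9.19% of all tested genes. The 4 with the lowest limma adjusted p (7.89e-07 to 2.46e-06) were LHCB4.3, LHCB7, LHCA1 and LHCA6, with log2 fold changes of 2.1, 1.62, 1.179 and 1.09.

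Another list holds genes for making, inserting, phosphorylating and dismantling the antenna. Of 14 such genes, 2 were called higher and 7 lower in cop1-6, against 10.9% and 38.6% of all tested genes. Under median-of-ratios scaling 5 were higher and 1 lower, and under equal totals 3 were higher and 2 lower. STN7 rose from 50.3 ± 4.81 to 72.2 ± 6.13 FPKM (0.51 ± 0.09 SE on the log2 scale, limma adjusted p = 0.00065), and SGR1, whose product starts chlorophyll breakdown, had a log2 fold change of 0.41 ± 0.12 SE (adjusted p = 0.0111). HCAR, which completes the conversion of chlorophyll b to a, fell from 18.2 ± 1.19 to 11.2 ± 2.0 FPKM (adjusted p = 0.000553). GLK2, a transcription factor gene that promotes antenna genes, fell from 84.2 ± 1.38 to 63.8 ± 5.08 FPKM (adjusted p = 0.000722), and ALB3, a membrane insertase gene, had a log2 fold change of −0.29 ± 0.07 SE (adjusted p = 0.00514). Neither GLK2 nor ALB3 was called with median-of-ratios scaling (adjusted p = 0.232 and 0.791), and ALB3 was not called with equal totals either (adjusted p = 0.319).

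In the libraries labelled cor27cor28, 2 of the 14 genes were lower and 0 higher, against 7.29% and 14.6% of all tested genes. Their median log2 fold change was 0.065. Under median-of-ratios scaling 4 were lower and 0 higher, and under equal totals 1 was lower and 4 higher. The 2 were ALB3 (−0.31 ± 0.07 SE, limma adjusted p = 0.011) and CAO, the gene of chlorophyll b synthesis (−0.36 ± 0.10 SE, adjusted p = 0.0257, and 0.0722 with equal totals). The lower count was 1 without wild-type replicate 1, without wild-type replicate 3 or without replicate 3 of these libraries, and 4 without cop1-6 replicate 2. Neither GLK1 nor GLK2 was called (adjusted p = 0.182 and 0.751). Between the mutants, HCAR and GLK2, GLK1 and NYC1 were lower in cop1-6 (log2 fold changes −0.96, −0.43, −0.49 and −0.33) and STN7 and CAO higher (0.42 and 0.38), which makes 2 higher and 4 lower, where median-of-ratios scaling gave 7 and 1. Under that scaling HCAR alone of the 4 was still called lower. GLK2 at −0.04 and GLK1 at −0.10 were not called, and NYC1 turned to 0.06 (limma adjusted p = 0.758, 0.372 and 0.637). NYC1 was also not called with equal totals (adjusted p = 0.0534). Between the mutants 9.19% of all tested genes were called higher in cop1-6 and 56.6% lower with the deposited values.

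Genes with the most similar pattern were ranked by Pearson r of log2(FPKM + 1) over the 9 libraries among 8191 genes with a mean of at least 10 FPKM. These values describe 9 points that fall into 3 genotypes, and no test is attached to them. LHCB1.1 and LHCB2.3 shared PSBO2, a subunit gene of the oxygen-evolving complex (r = 0.993 and 0.991), and PMDH2, a peroxisomal malate dehydrogenase gene (r = 0.991 and 0.995), and were themselves at r = 0.992. The third for LHCB1.1 was AT2G42975 (r = 0.992) and for LHCB2.3 PnsL1, of the photosynthetic NDH complex (r = 0.989). LHCB1.5 was closest to other photosynthesis genes: LHCB3 (r = 0.99), the plastocyanin gene DRT112 (r = 0.988) and LHCA4 (r = 0.987). LHCB1.2 was closest to AT3G14595, LHCB4.1 and PSBTN (r = 0.979, 0.977 and 0.974).

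Among the neighbours of the other members, those with a named product are not genes of the photosynthetic apparatus. The rest carry only a locus identifier here. LHCB1.4 was closest to PIP1;5, an aquaporin gene, VAB1, a vacuolar ATPase subunit gene, and AT2G34590 (r = 0.998, 0.995 and 0.994). LHCB1.3 was closest to the histone 3.3 gene AT5G10980, AT1G64370 and AT3G29240 (r = 0.993, 0.99 and 0.983). LHCB2.1 and LHCB2.2, themselves at r = 0.99, both had AT2G36145 (r = 0.995 for each) and AT2G46735 (r = 0.994 and 0.99) among their first 3, beside the floral MADS-box gene SEP2 for LHCB2.1 (r = 0.997) and AT4G31310 for LHCB2.2 (r = 0.988). Within the family the lowest value was that of LHCB1.4 with LHCB2.1 (r = −0.653).

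The regions before the genes were less alike than the coding sequences. No level of identity for unrelated sequence was computed. Over 250 bases upstream of the annotated start, LHCB1.1 shared 48.5% with LHCB1.2 and 43.9% with LHCB1.3 in alignment, and LHCB2.1 and LHCB2.2 had the highest value of any pair, 61.4%. The 4 upstream sequences below belong to members that moved differently: LHCB1.3 and LHCB1.4, which fell in cop1-6, LHCB1.1, the one LHCB1 gene that rose there, and LHCB2.3, which rose in cop1-6 and fell furthest in the libraries labelled cor27cor28. They are 5′ to 3′ on the strand of the gene from RefSeq TAIR10.1, with chr1:10475970-10476219 on the minus strand for LHCB1.1 and the plus strand for chr1:10477635-10477884 (LHCB1.3), chr2:14524357-14524606 (LHCB1.4) and chr3:10255656-10255905 (LHCB2.3). Capitals mark the letters of 3 searched motifs.
LHCB1.1: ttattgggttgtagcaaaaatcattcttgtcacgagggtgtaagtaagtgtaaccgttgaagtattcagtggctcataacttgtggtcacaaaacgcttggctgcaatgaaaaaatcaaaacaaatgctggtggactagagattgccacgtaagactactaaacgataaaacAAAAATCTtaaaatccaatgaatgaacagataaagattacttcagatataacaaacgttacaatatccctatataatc
LHCB1.3: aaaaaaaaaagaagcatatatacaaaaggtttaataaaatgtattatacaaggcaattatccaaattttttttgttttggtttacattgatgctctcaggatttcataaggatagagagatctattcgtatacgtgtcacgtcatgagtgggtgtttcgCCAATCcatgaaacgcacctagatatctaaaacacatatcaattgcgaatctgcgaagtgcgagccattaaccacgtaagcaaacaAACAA
LHCB1.4: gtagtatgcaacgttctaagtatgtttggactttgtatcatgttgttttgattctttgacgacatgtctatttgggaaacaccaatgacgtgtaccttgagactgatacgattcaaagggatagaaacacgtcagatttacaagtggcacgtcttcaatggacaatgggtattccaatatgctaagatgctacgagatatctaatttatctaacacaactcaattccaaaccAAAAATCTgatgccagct
LHCB2.3: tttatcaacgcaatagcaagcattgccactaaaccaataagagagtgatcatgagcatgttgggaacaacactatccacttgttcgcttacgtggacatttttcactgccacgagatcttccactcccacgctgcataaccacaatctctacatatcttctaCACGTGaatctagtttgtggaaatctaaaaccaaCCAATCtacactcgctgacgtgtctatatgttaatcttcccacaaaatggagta
The motifs searched on both strands, from 250 bases before to 50 bases after the start, were the G-box CACGTG, the I-box GATAAG, the CCA1-binding motif AANAATCT, the evening element AAAATATCT and the GLK-type motif CCAATC. CCA1, a morning transcription factor of the clock, was first found by its binding to an LHCB1 promoter. The letters AANAATCT, with N as any base, stood in 4 of 8 members against 15.9% of 27443 promoters. They lay 78 bases upstream in LHCB1.1, and 18 upstream and once after the start in LHCB1.4. In LHCB1.3 they lay 5 upstream (running past the printed end) and once after the start. The match 164 upstream in LHCB1.5 reads AAGAATCT, and narrower forms of the motif were not searched. The GLK-type letters stood in 5 of 8 against 12.3%: LHCB1.3, LHCB1.5 and the 3 LHCB2 genes. A G-box was found in LHCB2.3 alone, 88 bases upstream, against 7.68% of promoters, and an I-box in LHCB2.1 alone, against 14.6%. The evening element was in 0 of 8 against 2.82%, LHCB1.2 held none of the 5 motifs, and no 2 matches overlapped. These matches describe letters in a window and do not show binding.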

How the data were processed

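Transcripts were measured by RNA sequencing in 9 libraries, 3 per genotype. The authors deposited 1 FPKM value per gene and library. Tools listed in the submitters' processing notes, without roles or order, are Bowtie2, Cufflinks, DESeq 1.18.0, HISAT2 2.2.1.0, TopHat and Trimmomatic 0.36, with TAIR10 as build, and the sources used here do not say which of them made the FPKM. FPKM keeps no read depth, so no counting interval was computed, and a change in abundant genes shifts all other values of its library.

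Of 26997 entries, 13 without a name (at most 0.00203% of a library's FPKM sum) were left out. The 17075 genes that reached 1 FPKM in 3 or more libraries, all 8 members among them, were fitted with limma 3.58.1 (R 4.3.3) on log2(FPKM + 1), with a variance trend and all 9 libraries, and called at a Benjamini-Hochberg adjusted p under 0.05 over all tested genes. Group values are means ± SD of 3 libraries. Fold changes on this scale understate those of low genes. Ratios of copies were tested by exact permutation of their log2 values. Both steps were tested on simulated data. Gene positions and sequences came from the RefSeq TAIR10.1 genome with Biopython 1.88.

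The members and gene lists were chosen with earlier results of these data known. Named genes were the 8 members, up to 4 called genes with the lowest adjusted p per list and comparison, the 3 genes most like each member, COR27, COR28 and CASP1. Further genes making up counts of 5 or fewer, and LHCB3, GLK1, and the root and seed markers other than CASP1, were named after their values were seen. SGR2 was not analysed here.

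Alternatives were median-of-ratios scaling, equal totals, a pseudocount of 0.1, no filter, no variance trend, only the 2 groups compared, a replicate block and leaving out each library.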

Additional observations from a re-analysis of the deposited data

How the results depend on the processing

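Of 384 single-gene values of the 8 members under alternative settings, 379 kept direction and call, 4 lost the call, all for LHCB1.5 in cop1-6 as given with its values, and 1 changed sign, LHCB1.3 between the mutants with median-of-ratios scaling (0.24, not called). Members called higher numbered 4 in cop1-6, 0 in the libraries labelled cor27cor28 and 6 between the mutants under every setting run, and members called lower 3 to 4, 8 and 1.

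The summed values moved with the scaling. With median-of-ratios scaling the log2 fold changes in cop1-6 against wild type were −0.72 for the LHCB1 sum, 1.34 for the LHCB2 sum and −0.51 for the sum of 8, and with equal totals −0.79, 1.28 and −0.58. With median-of-ratios scaling the LHCB2 sum was at −0.89 for the libraries labelled cor27cor28, and between the mutants the 3 sums were at 0.50, 2.24 and 0.69. Fits of only the 2 groups compared were not run for the sums, and a table with copies summed gives no count of members.

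Over all tested genes same-numbered libraries did not deviate together (correlations −0.184 to 0.125, 1 of 9 pairs over 0.1). A shift common to all genes of a library does not enter these correlations, so they cannot exclude that the numbers pair the samples. Replicate 3 was lowest for 8 of the 8 members in wild type, 7 in cop1-6 and 5 in the libraries labelled cor27cor28. A replicate block changed no call of a member in limma. In the exact test of copy ratios the block leaves 216 assignments with a smallest p of 0.0278, and the adjusted p of the 12 pairs became 0.0516 for 7, 0.0722 for 3 (LHCB1.1 with LHCB1.3, LHCB1.2 with LHCB1.5, LHCB1.4 with LHCB1.5) and 0.0903 for 2 (LHCB1.2 with LHCB1.4, LHCB2.1 with LHCB2.3). For LHCB2.1 over LHCB2.2, leaving out 1 library gave adjusted p from 0.0169 to 0.379. The cause of these shifts was not tested. Read depth is not given, so its limits could not be assessed.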
